A study of Sus scrofa with 15 samples.

Results

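UBE2C, TOP2A, TPX2, MKI67 and ZNF367 are genes of the dividing cell, and their RNA was followed across 5 sorted cell populations of adult pig knees. They were chosen by gene symbol, with earlier results of these data known, and are 5 of the 25322 genes measured. The table names UBE2C (ENSSSCG00000007423), TOP2A (ENSSSCG00000017473) and MKI67 (ENSSSCG00000026302) itself, while TPX2 (ENSSSCG00000007235) and ZNF367 (ENSSSCG00000028981) are there by Ensembl identifier alone and took their symbols from a reference list. Each had 1 entry.

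Cells copy their DNA in S phase and part the copies in mitosis, and the genes for each step are switched on and off with the cycle. TOP2A untangles the sister chromosomes, MKI67 coats the mitotic chromosomes and is the usual stain for proliferating cells, TPX2 builds spindle microtubules and activates the Aurora A kinase, and UBE2C is the ubiquitin-conjugating enzyme that works with the anaphase-promoting complex to destroy the mitotic cyclins. ZNF367 is a zinc finger transcription factor whose transcript is made around the entry into S phase in cultured human cells. Adult articular chondrocytes are known to divide rarely, so that transcripts of this kind are usually scarce in cartilage.

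Chondrocytes were sorted from digested cartilage of adult pigs on 2 surface proteins, the integrin subunit ITGA4 and the BMP receptor BMPR1B. The study asked whether a population in adult cartilage keeps features of more primitive chondrocytes. The groups were double positive cells (DP, ITGA4+BMPR1B+), cells with ITGA4 alone (A4, ITGA4+BMPR1B-), cells with BMPR1B alone (B1B, ITGA4-BMPR1B+) and double negative cells (DN, ITGA4-BMPR1B-), each from pigs 2, 5 and 6. The reference outside cartilage was CD146+ cells of the synovium negative for CD45 and CD31 (MSC), sorted by the study as pericytes, from pigs 3, 4 and 5. No cells were treated or genetically changed, the legs came from a farm, and each population is a gate of a digest and not a pure cell type, with 3 libraries, 1 per pig.

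The libraries were of total RNA, and rows of messenger RNA held 2.03% to 22.1% of the signal. Structural RNA, a class that pools ribosomal and other noncoding RNA, was at 43.9% to 96.2%. Chondrocyte libraries of pig 2 (2.03% to 4.16%) and MSC libraries (2.95% to 3.79%) had the lowest messenger share. All levels given here are on a messenger RNA scale, in which structural and mitochondrial RNA were left out and libraries were brought to a common size, so that the messenger signal of a library averages 1000000. Read counts are unknown, between 14555 and 18359 genes were above the lowest value in a library, and levels are compared within a gene only. Cartilage markers summed to 16780 to 90020 in chondrocyte libraries and 35.9 to 53.3 in MSC libraries. Endothelial markers, the cells that the CD31 gate should remove, summed to 18.4 to 119 in chondrocytes and 2560 to 4489 in MSC, and pericyte markers summed to 374 to 800 in MSC and 380 to 1536 in chondrocytes. Of 5 tested pericyte markers, MCAM (CD146, used in the sort), ACTA2 and RGS5 were called lower in chondrocytes (by limma, differences of -6.70, -3.62 and -2.59) and CSPG4 higher (7.88). The MSC libraries were thus rich in endothelial transcripts despite the gate, and they are called here by their label.

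All 5 genes were highest in DP and lowest in DN among the chondrocytes of every pig. TOP2A had levels of 7.61, 50.7 and 46.4 in DP cells of pigs 2, 5 and 6. It had 4.49, 7.36 and 6.90 in A4, 2.25, 8.34 and 18.7 in B1B, and 1.74, 0.502 and 3.77 in DN. DP libraries all lay above DN libraries and above A4 libraries, whereas the B1B libraries of pigs 5 and 6 exceeded the pig 2 DP library.

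MKI67 followed the same order at lower contrast. Its levels were 7.79, 13.7 and 14.3 in DP, 5.57, 3.39 and 4.29 in A4, 2.48, 5.04 and 10.6 in B1B, and 0.664, 0.907 and 2.93 in DN. For MKI67 the pig 6 B1B library, with 10.6, was the only single positive library above any DP library.

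TPX2 was the steadiest of the genes between pigs. DP cells had 8.25, 10.2 and 9.95, A4 cells 4.29, 4.01 and 3.23, B1B cells 4.28, 3.12 and 5.36, and DN cells 1.52, 1.29 and 1.87. These levels form 3 tiers with no overlap, DP above both single positive populations and these above DN. DP libraries lay above all A4 libraries in 4.41% and above all B1B libraries in 3.44% of genes tested. The share of genes with all 3 tiers was not counted, and TPX2 reached the level needed for testing only through its DP libraries.

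UBE2C, which acts at the exit from mitosis, had 12.98, 45.3 and 66.4 in DP, 9.10, 10.01 and 15.8 in A4, 3.17, 6.15 and 29.4 in B1B, and 0.788, 2.90 and 3.11 in DN. The DP library of pig 2, at 12.98, was below the A4 library of pig 6 and the B1B library of pig 6, but above both within its own pig.

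ZNF367, the S-phase gene of the set, had 28.6, 72.5 and 24.5 in DP, 12.7, 16.3 and 5.04 in A4, 8.33, 11.8 and 11.1 in B1B, and 5.52, 4.34 and 4.04 in DN. All 3 DP libraries lay above every other library of the study, a separation whose share over all genes was not counted. The pig 5 DP library was the highest library for TOP2A, TPX2 and ZNF367, and the pig 6 DP library for UBE2C and MKI67.

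**Figure D1:**
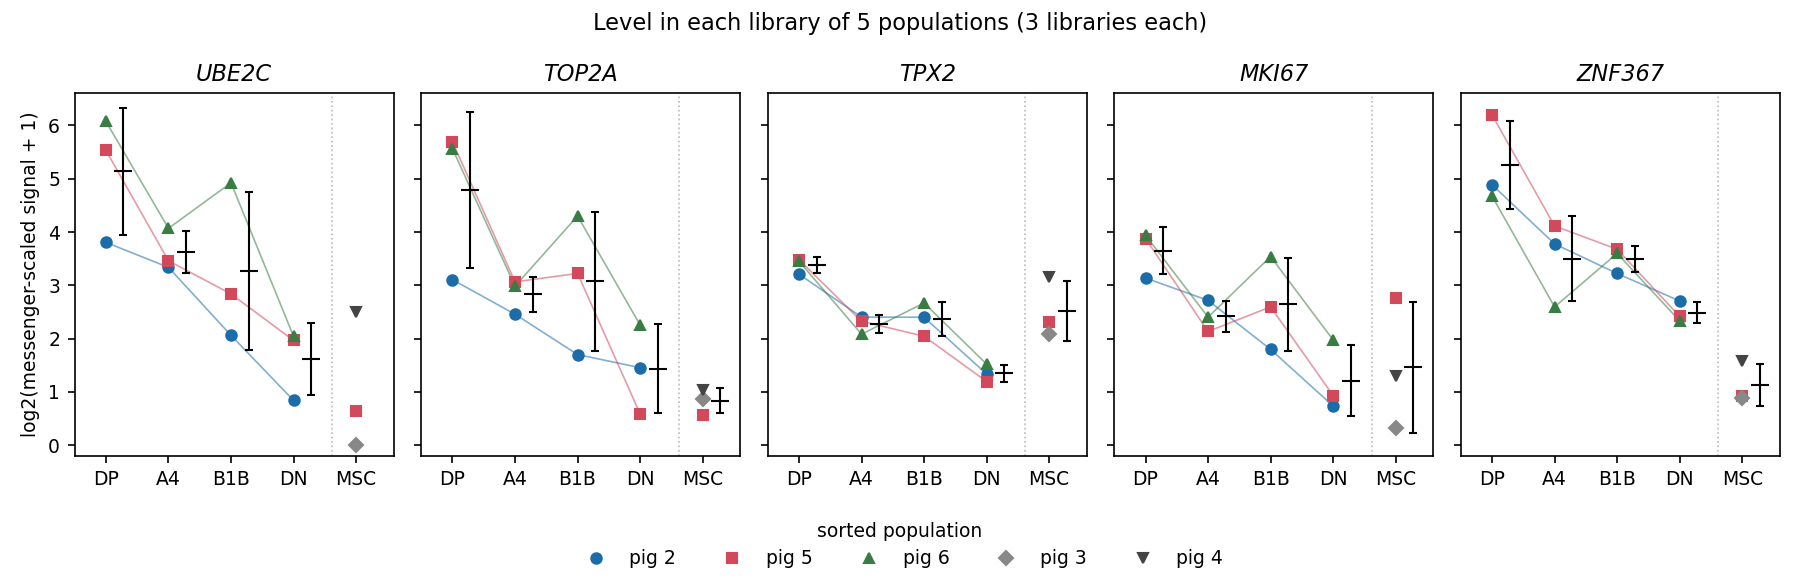
Level of each gene in the 15 libraries as log2(messenger-scaled signal + 1), by sorted population. Symbols are libraries, coloured lines join the chondrocyte populations of 1 pig, and black bars are the mean and SD over 3 libraries, left out for UBE2C in MSC where 1 library is listed at 0. Every line starts at its highest point in DP and ends at its lowest in DN, and A4 and B1B cross between pigs.

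The order DP highest and DN lowest in each of 3 pigs was shared by 38 of the 9960 genes tested (0.382%), the 5 among them. Of 79 other tested entries on 8 lists of cell cycle genes, 7 had it. These were the S-phase and mitotic cyclin CCNA2, the spindle checkpoint protein MAD2L1, the kinetochore protein CENPF, the spindle-associated CKAP2, the cytokinesis kinesin KIF20A, the cyclin-dependent kinase subunit CKS2 and DBF4, which activates the kinase that fires replication origins. Of the 79, 16 had reached the level needed for testing only through their DP libraries, so the count leans towards DP. The ordering was looked for after the levels had been seen, on lists chosen with earlier results of these data known, and is a description. From the same sorted populations the paper had already reported cell cycle and mitosis terms among genes enriched in DP over each other chondrocyte population. In bulk RNA, fewer cycling cells and less of these transcripts in each cell cannot be told apart.

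Means over the 3 pigs put a size on the gap. In DP, TOP2A averaged 34.9 ± 23.7, UBE2C 41.6 ± 26.9, ZNF367 41.9 ± 26.6, MKI67 11.9 ± 3.61 and TPX2 9.45 ± 1.05. In DN, TOP2A averaged 2.01 ± 1.65, UBE2C 2.27 ± 1.29, ZNF367 4.63 ± 0.786, MKI67 1.499 ± 1.24 and TPX2 1.56 ± 0.292 (SD, n = 3 for each). The ratio of DP to DN within a pig was 15.6 to 21.4 for UBE2C, 4.37 to 101 for TOP2A, 5.18 to 16.7 for ZNF367, 4.90 to 15.1 for MKI67 and 5.32 to 7.89 for TPX2. The ratio of 101 for TOP2A belongs to pig 5, whose DN library had the lowest level of all chondrocyte libraries.

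DP libraries did not overlap DN libraries for any of the 5 genes, with DP higher, which held for 5.54% of all genes tested. Differences were tested with limma on log2(level + 1), a scale that understates the change of low genes. DP exceeded DN by 3.52 ± 0.75 for UBE2C (adjusted p = 0.355), 3.36 ± 0.79 for TOP2A (adjusted p = 0.397), 2.77 ± 0.45 for ZNF367 (adjusted p = 0.171) and 2.44 ± 0.47 for MKI67 (log2 difference ± SE, adjusted p = 0.252). TPX2 rose in DP by 2.03 ± 0.22 (adjusted p = 0.00749), the single member past the threshold of 0.05, where 0.0402% of genes were called and 0.0301% called higher. With the pig as a block, the adjusted p was 0.0575 for TPX2, 0.0640 for UBE2C, 0.0756 for ZNF367, 0.0824 for MKI67 and 0.120 for TOP2A, so that the TPX2 call was lost. It was also lost without the pig 5 DN library (adjusted p = 0.0704). TPX2 passed the filter on low values only through its DP libraries, while the other 4 genes passed it without them.

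**Figure D2:**
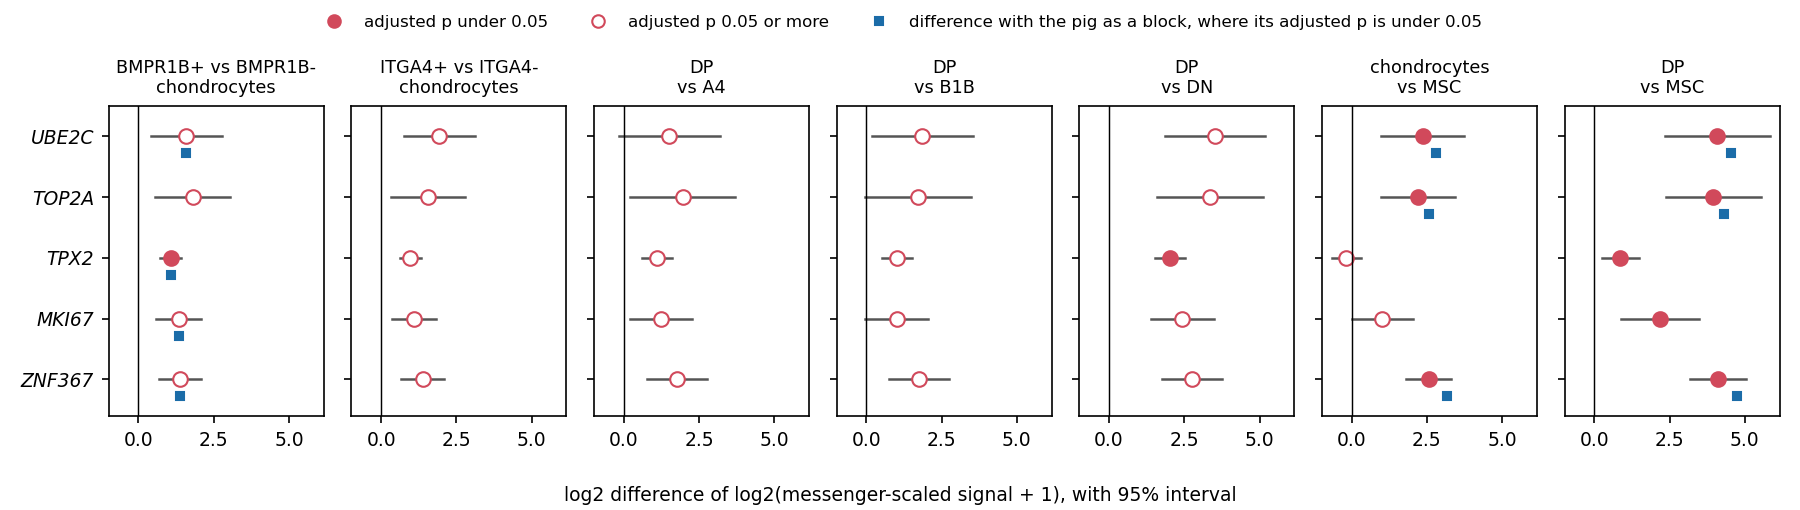
Log2 difference of each gene in 7 comparisons (horizontal axis, log2 units of level + 1), with its 95% interval as a line. Filled circles passed an adjusted p of 0.05, and blue squares mark differences that passed with the pig as a block. Against MSC, the block rests on the pig 5 MSC library alone. Differences among chondrocytes are all above 0, TPX2 lies near 0 between chondrocytes and MSC, and the largest value is 4.12 for ZNF367 in DP against MSC.

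To see which surface protein the levels went with, the populations were pooled by each in turn. Cells with BMPR1B (DP and B1B) had more of all 5 transcripts than cells without it (A4 and DN). TPX2 rose by 1.07 ± 0.16 (limma adjusted p = 0.0472), and medians over 6 libraries were 6.80 in BMPR1B+ cells (range 3.12 to 10.2) and 2.55 in BMPR1B- cells (range 1.29 to 4.29). TPX2 had entered this test only through its DP libraries, which belong to the BMPR1B+ pool. With no filter on low values its limma adjusted p was 0.0513. The other genes differed by 1.80 for TOP2A (limma adjusted p = 0.283), 1.59 for UBE2C (0.328), 1.39 for ZNF367 (0.151) and 1.33 for MKI67 (0.174). Of all genes 0.211% were called, 0.131% higher and 0.0803% lower.

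Because the same 3 pigs gave all chondrocyte populations, the pig was also fitted as a block, and 264 genes were called with the block against 21 without it. In that fit UBE2C (limma adjusted p = 0.0400), TPX2 (0.0204), MKI67 (0.0411) and ZNF367 (0.0365) rose with BMPR1B, 4 of the 5, where 2.65% of all genes were called and 1.21% called higher, and TOP2A had an adjusted p of 0.0656. Here too TPX2 had entered the test only through its DP libraries. Each gene was higher with BMPR1B in 3 of 3 pigs, from 0.45 for TOP2A in pig 2 to 2.63 for TOP2A in pig 5. That sign follows from DP being highest and DN lowest in every pig, so it is no separate support. Pig 2, the pig with the lowest messenger share, had the smallest BMPR1B difference for each of the 5 genes. With ITGA4 the smallest difference was in pig 6 for each of the 5, and pig 2 had the largest for UBE2C (2.12) and MKI67 (1.66). The part of the messenger share in these differences was not tested. Without a block, the TPX2 call was lost when any 1 chondrocyte library other than the pig 2 A4 or the pig 2 B1B library was left out, with differences of 0.99 to 1.15 over all 12 such fits. Cartilage markers moved the same way, with sums of 28130 to 90020 in BMPR1B+ and 16780 to 37580 in BMPR1B- libraries. The sum of fibroblast and synovial lining markers went the other way, with 1088 to 3283 in BMPR1B+ and 2916 to 5732 in BMPR1B- libraries. Of 7 tested markers in that sum, 2 were higher with BMPR1B (DCN 0.19, COL3A1 0.49) and none was called in the fit without a block. PRG4, which the paper also describes as a marker of the most superficial chondrocytes, differed by -3.50. The part of these markers in the difference was not tested.

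Cells with ITGA4 (DP and A4) also had more of each transcript than cells without it (B1B and DN), but no member passed the test. The differences were 1.94 ± 0.53 for UBE2C (limma adjusted p = 0.756), 1.56 ± 0.56 for TOP2A (0.821), 1.38 ± 0.32 for ZNF367 (0.555), 1.11 ± 0.33 for MKI67 (0.756) and 0.97 ± 0.16 for TPX2 (0.188). The 95% intervals lay above 0 for each, from 0.32 to 2.80 for TOP2A to 0.62 to 1.31 for TPX2. In this comparison 0.01% of genes were called, a single gene, and 566 had an unadjusted p under 0.05. With the block, adjusted p was 0.142 for UBE2C and TPX2 and 0.145 to 0.246 for the rest. Each gene was higher with ITGA4 in 3 of 3 pigs, a sign that again follows from the order of DP and DN and is no separate support. The differences with ITGA4 were close in size to those with BMPR1B. UBE2C differed more with ITGA4 (1.94 against 1.59). The other genes differed less, from 1.38 against 1.39 for ZNF367 to 1.56 against 1.80 for TOP2A. Each gene had the same SE in both comparisons, with or without the block. The calls also depend on all genes tested, so they do not set BMPR1B above ITGA4 for these genes. Mitochondrial RNA held 18.4% to 35.1% of the signal in ITGA4+ and 1.80% to 16.8% in ITGA4- libraries, with no overlap, and its part in the difference was not tested.

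Whether DP cells exceeded what both proteins add up to was asked with the interaction, the BMPR1B difference in ITGA4+ cells minus that in ITGA4- cells. It was 0.74 for ZNF367 (95% interval -0.66 to 2.15), 0.31 for TOP2A (-2.17 to 2.80), 0.09 for TPX2 (-0.61 to 0.78), -0.14 for UBE2C (-2.51 to 2.22) and -0.20 for MKI67 (-1.67 to 1.27). No member was called, with a limma adjusted p of 1 for each and 0.01% of all genes called. The intervals are wide on either side of 0, the signs for UBE2C, TOP2A, TPX2 and MKI67 turned under other settings, and the data do not tell a sum of both differences from more or less than it.

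DP was then set against each single positive population. Over A4, which shares ITGA4, DP was higher by 1.95 for TOP2A, 1.76 for ZNF367, 1.52 for UBE2C, 1.23 for MKI67 and 1.11 for TPX2 (limma adjusted p from 0.291 for TPX2 to 0.649 for UBE2C). Over B1B, which shares BMPR1B, it was higher by 1.86 for UBE2C, 1.75 for ZNF367, 1.71 for TOP2A, 1.01 for TPX2 and 1.01 for MKI67 (limma adjusted p of 0.850 or more). In neither comparison was any gene of the 9960 called by limma with or without the block (0%), while 810 genes had an unadjusted p under 0.05 against A4 and 373 against B1B. DP libraries did not overlap A4 libraries for 4 of the 5, UBE2C being the exception (4.41% of all genes with DP higher), and did not overlap B1B libraries for TPX2 and ZNF367 (3.44%).

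The single positive populations had similar levels of these genes. Means were 3.85 ± 0.547 in A4 and 4.25 ± 1.12 in B1B for TPX2, 11.3 ± 5.75 in A4 and 10.4 ± 1.83 in B1B for ZNF367, and 11.6 ± 3.63 in A4 and 12.9 ± 14.3 in B1B for UBE2C (SD, n = 3). For TOP2A they were 6.25 ± 1.54 in A4 and 9.77 ± 8.32 in B1B, and for MKI67 4.42 ± 1.10 in A4 and 6.05 ± 4.17 in B1B. Each gap is within the spread of B1B or A4 libraries, so A4 and B1B were not ordered. B1B exceeded DN by 1.66 for UBE2C, 1.64 for TOP2A, 1.43 for MKI67, 1.02 for TPX2 and 1.01 for ZNF367, with no member called (limma adjusted p of 0.665 or more, 0.01% of genes called, 351 at an unadjusted p under 0.05).

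Outside cartilage, the 5 genes did not behave as a group. In MSC libraries of pigs 3, 4 and 5, TOP2A had 0.835, 1.06 and 0.490 and ZNF367 had 0.839, 2.00 and 0.898. Chondrocyte libraries had a median of 7.13 for TOP2A (0.502 to 50.7) and 11.4 for ZNF367 (4.04 to 72.5), so that every chondrocyte library was above every MSC library for ZNF367. How many of all genes were so separated was not counted. Chondrocytes exceeded MSC by 2.55 ± 0.34 for ZNF367 (limma adjusted p = 5.61e-05) and 2.20 ± 0.57 for TOP2A (limma adjusted p = 0.00749).

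UBE2C was listed at 0 in the pig 3 MSC library and had 4.66 and 0.567 in those of pigs 4 and 5, against a median of 9.55 in chondrocytes (0.788 to 66.4). It rose in chondrocytes by 2.36 ± 0.64 (limma adjusted p = 0.00920), a call lost without the pig 3 MSC library (difference 1.84, adjusted p = 0.0682). Thus 3 of the 5 were called higher in chondrocytes, where 44.2% of all genes were called and 22.4% called higher, and the same 3 were called with the block, in which 34% of all genes were called and 18.9% called higher.

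TPX2 and MKI67 differed from that pattern. TPX2 had 3.27, 7.90 and 3.99 in MSC of pigs 3, 4 and 5, within the range of the chondrocyte libraries, whose median was 4.15 (1.29 to 10.2). The difference was -0.18 (95% interval -0.66 to 0.30, limma adjusted p = 0.544) and it turned to 0.14 without the pig 4 MSC library. MKI67 had 0.257, 1.45 and 5.82 in MSC and a median of 4.66 in chondrocytes (0.664 to 14.3), a difference of 1.02 (limma adjusted p = 0.0968). MKI67 was called without the pig 5 MSC library (1.67, adjusted p = 0.0127). With the pig as a block, where pig 5 is the only animal in both sets, the MKI67 difference turned to -0.39.

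DP against MSC gave wider gaps than DP against DN for UBE2C, TOP2A and ZNF367 and narrower ones for TPX2 and MKI67, comparisons that share the DP libraries. DP libraries lay above all MSC libraries for 5 of 5 genes (22% of all genes). ZNF367 rose by 4.12 ± 0.43 (limma adjusted p = 1.39e-05), UBE2C by 4.09 ± 0.81 (0.00170), TOP2A by 3.96 ± 0.72 (0.00101), MKI67 by 2.19 ± 0.59 (0.0121) and TPX2 by 0.86 ± 0.28 (0.0311). All 5 were called higher, against 18% of all genes, and TPX2 had entered the test only through its DP libraries. With the block, which here rests on the pig 5 MSC library alone, the differences were 4.75 for ZNF367, 4.53 for UBE2C, 4.32 for TOP2A, 0.98 for TPX2 and 0.78 for MKI67. The TPX2 call was lost without the pig 5 DP (adjusted p = 0.0838), pig 6 DP (0.0808), pig 3 MSC (0.117) or pig 5 MSC (0.0946) library, and the MKI67 call without the pig 3 MSC library (0.0512). MSC libraries held endothelial transcripts at 2560 to 4489 and DP libraries at 18.4 to 57.4, and their part in the differences was not tested.

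The wider cell cycle was read through 8 lists with 194 genes, chosen with earlier results of these data known. Many are scarce here. Of the 17 measured genes of the mitotic cyclins, kinases and checkpoint, only CCNA2, CCNB1 and MAD2L1 passed the filter on low values, and 2 of these 3 passed it through DP libraries alone. In all, 84 listed genes were tested, counted by entry, with 2 entries each for FZR1 and H2AFZ. Those of FZR1 differed in sign with BMPR1B (0.35 and -0.15). Of the 84, 17 passed only through DP libraries, against 278 of the 9960 tested, so a list median over tested genes leans towards DP.

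Between DP and DN, TPX2 was the single listed gene called of the 84 tested. The lists were therefore described over every gene above 0 in any library, with no filter on low values and no test, an addition made after the values were seen. DP was the higher in 17 of 17 genes of the mitotic cyclin and kinase list (median difference 1.31), 32 of 35 of the spindle and kinetochore list (0.97), 17 of 17 of the mitotic chromosome list (0.75) and 14 of 15 of the anaphase-promoting complex list (0.38). It was the higher in 19 of 19 replication licensing genes (0.49) and 31 of 35 DNA synthesis genes (0.41). The transcription factor list had 12 of 16 (0.18) and the list of D cyclins and CDK inhibitors 10 of 18 (0.02), against 9819 of 20643 genes (47.6%) and a median of 0 over all genes. These counts include the 5 genes themselves.

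CCNA2 averaged 22.0 ± 8.62 in DP, 6.61 ± 2.06 in A4, 7.89 ± 1.42 in B1B and 4.05 ± 2.22 in DN (SD, n = 3), with no overlap of DP with the others (DP vs DN 2.20, limma adjusted p = 0.177). Of all genes tested, DP lay above A4 in 4.41%, above B1B in 3.44% and above DN in 5.54%, and the share above all of them was not counted. CDK1, the kinase that drives mitosis, averaged 5.60 ± 4.71 in DP (0.978 to 10.4) and between 0.456 and 1.02 in the other chondrocytes, and AURKB, the kinase of the chromosomal passenger complex, 6.84 ± 3.19 in DP and 1.23 ± 0.441 in DN. Both were below the filter and were not tested. CCNB1, another mitotic cyclin, averaged 14.4 ± 13.6 in DP, 3.79 in A4, 5.19 in B1B and 1.35 in DN (DP vs DN 2.06, limma adjusted p = 0.808). Its lowest DP library, at 0.715, lay below every A4 and B1B library and within the DN range (0.383 to 2.39). CCNB1 did not have the order of DP highest and DN lowest in every pig.

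Some genes often taken for proliferation markers had smaller differences between DP and DN. CDC20, an activator of the anaphase-promoting complex, averaged 27.3 in DP, 33.7 in A4, 23.5 in B1B and 23.4 in DN (DP vs DN 0.38, limma adjusted p = 0.954). PCNA, the DNA polymerase clamp, averaged 86.0 in DP and 47.8 to 55.0 in the other chondrocytes (DP vs DN 0.71, limma adjusted p = 0.790), and FOXM1, a transcription factor of mitotic genes, ranged from 0 to 0.186 in DP and from 0.0366 to 0.0616 in DN. Others had differences nearer to those of the 5 genes without passing the test. E2F1, an activator of S-phase genes, averaged 19.6 in DP, 7.44 in A4, 10.1 in B1B and 3.06 in DN (DP vs DN 2.35, limma adjusted p = 0.552), and TYMS, the thymidylate synthase, 31.7 in DP and 7.64 in DN (1.78, limma adjusted p = 0.453). MCM2, a subunit of the replicative helicase, had 7.07 in DP and 1.80 in DN (1.52, limma adjusted p = 0.714). MCM5, another subunit, was under the filter and not tested. It averaged 4.28 in DP (2.37 to 7.28) and 2.05 in DN (1.30 to 3.01), ranges that overlap. PLK1, a mitotic kinase, ranged from 0.712 to 4.83 in DP and from 0 to 0.191 in DN, and MYBL2, an activator of mitotic genes, averaged 1.12 in DP and 0.183 in DN, both under the filter.

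Among genes that act around the exit from and entry into the cycle, the CDK inhibitor CDKN1B averaged 44.8 in DP, 75.8 in A4, 47.6 in B1B and 61.2 in DN (BMPR1B+ vs BMPR1B- -0.56, limma adjusted p = 0.350). CDKN1A, another CDK inhibitor, averaged 3.61 in DP, 1.29 in A4, 4.02 in B1B and 0.603 in DN, the pocket protein RBL2 between 28.8 and 32.8 in the 4 populations, and CCND1, the D cyclin that drives entry into the cycle, 201 in DP and 148 in DN, none of them called among chondrocytes.

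With the pig as a block, 8 of the 84 listed genes tested were called in BMPR1B+ cells, all higher, where 2.65% of all genes were called and 1.21% called higher. Besides UBE2C, TPX2, MKI67 and ZNF367 these were CCNA2 (1.22, limma adjusted p = 0.0407), the cytokinesis scaffold ANLN (1.31, 0.0413), CKS2 (0.90, 0.0471) and the transcription factor MYBL1 (0.89, 0.0311). No listed gene was called lower in that fit. Of the 84, 17 had passed the filter only through DP libraries, which belong to the BMPR1B+ pool, against 278 of the 9960 genes tested. The listed genes thus lean towards BMPR1B+, and their share is not a like comparison with that of all genes.

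**Figure D3:**
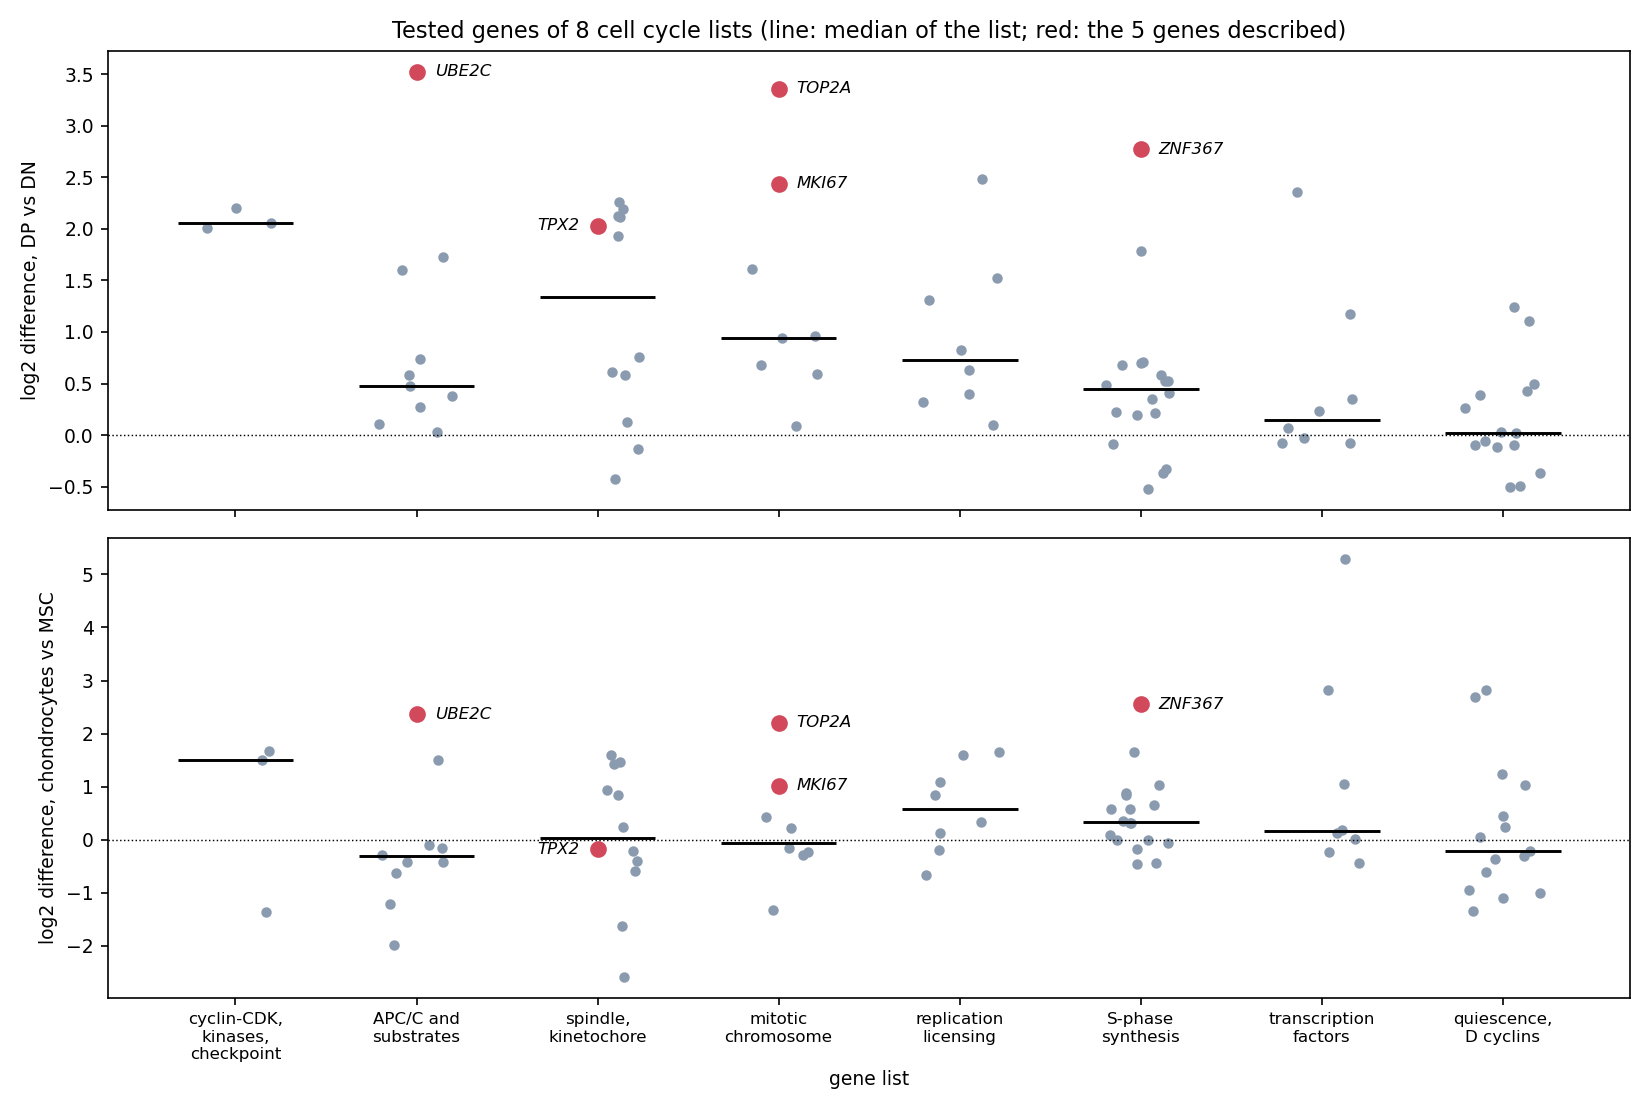
Log2 difference of the tested genes of 8 cell cycle lists (vertical axis, log2 units of level + 1), DP against DN above and chondrocytes against MSC below. Each grey point is a gene, red points are the 5 genes described and black lines are list medians. For FZR1 and for H2AFZ only 1 entry is drawn, while the medians hold both. In the upper panel the mitotic lists sit above 0 with medians of 0.48 to 2.06, where 17 of the 84 tested genes had passed the filter only through DP libraries, and in the lower panel genes of the same lists lie on both sides of 0.

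Against MSC the mitotic genes split. In chondrocytes CCNA2 rose by 1.66 (limma adjusted p = 0.00571), ANLN by 1.60 (0.00123) and CENPF by 1.44 (0.0264), while CKS2 fell by 1.97 (0.000168), MAD2L1 fell by 1.36 (0.00696), ESPL1, the separase that cuts cohesin, fell by 2.58 (0.0144) and STMN1, a microtubule-destabilising protein, fell by 1.62 (0.00583). CKS2, which shared the order of DP and DN with the 5 genes in every pig, averaged 40.6 ± 20.5 in DP and 10.8 ± 2.44 in DN, against 78.9 ± 41.1 in MSC (SD, n = 3). Of the tested spindle genes 3 were called higher and 2 lower (median 0.03), of the mitotic chromosome genes 1 and 1 (-0.06) and of the anaphase-promoting complex list 2 and 1 (-0.31), against a median of -0.02 for all genes.

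Of the S-phase genes, 6 of 18 tested DNA synthesis genes were called higher and 0 lower in chondrocytes (median 0.34), and 4 of 8 tested licensing genes higher and 1 lower (0.59), where 22.4% of all genes were called higher and 21.8% lower. Of the licensing genes, 4 of the 8 had passed the filter only through DP libraries. RFC5, a subunit of the clamp loader, rose by 1.66 (limma adjusted p = 6.30e-06), the helicase subunit MCM4 by 1.65 (0.000206) and MCM2 by 1.60 (0.00741). Of the transcription factors MYBL1 rose by 5.29 (1.23e-05) and E2F1 by 2.82 (0.000783), and among the D cyclins and inhibitors CCND2 rose by 2.83 (0.000141) while CDKN1B fell by 0.95 (0.00690) and RB1 fell by 1.35 (3.19e-05).

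Over the 12 chondrocyte libraries, with the mean of each pig removed, the 5 genes followed each other with Pearson r between 0.904 (UBE2C and TOP2A) and 0.968 (TOP2A and ZNF367, TPX2 and ZNF367). These are descriptions over 12 libraries of 3 pigs and 4 populations, which share pigs and library scale. The population means were not removed. As all 5 genes were highest in DP and lowest in DN in every pig, a high r among them in part restates that order. Ranked among 6454 genes with a symbol and a mean level of at least 5, the genes most like TOP2A besides members were RNF141 (r = 0.958), TYMS (0.939) and LSM5 (0.938), like TPX2 UBE2T (0.974) and RNF141 (0.956), like MKI67 CKS2 (0.932) and STK17A (0.922), like ZNF367 RNF141 (0.981), CKS2 (0.972) and TYMS (0.941), and like UBE2C HIST2H3D (0.946), H2AFX (0.938) and UBE2T (0.932). TPX2, with a mean of 4.78 over the chondrocytes, was below that level and was not ranked as a neighbour, although its r was 0.958 with UBE2C and 0.951 with MKI67.

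HIST2H3D, a histone H3 gene with near-identical copies in the genome so that its level is uncertain, had 98.4, 224 and 76.5 in DP and 0.00889, 1.74 and 0.00126 in DN. UBE2T, a ubiquitin-conjugating enzyme of DNA repair, ranged from 17.4 to 31.8 in DP and 6.86 to 13.2 in DN, and RNF141 from 5.35 to 9.17 in DP and 3.56 to 4.10 in DN. These genes were chosen for following the members over the same libraries, so no test of DP against DN is given for them.

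Markers of other cells that divide in tissue were read beside these levels. Macrophage and monocyte markers summed to 125 to 290 in DP and 200 to 309 in DN libraries, with CD163, CSF1R, C1QA, C1QB and TYROBP at 0 in all DP libraries. The sums come from the remaining markers, of which CD14, LYZ and CD68 were tested. With ITGA4, CD68 differed by 1.73, CD14 by -0.20 and LYZ by -0.08, none of them called. Erythroid markers summed to 13.8 to 20.2 in DP and 11.2 to 22.4 in DN. Lymphocyte markers, with CD3D, CD3E, CD2, MS4A1 and NKG7 at 0 in both populations and CD79A making up most of the sum, summed to 81.6, 59.1 and 51.6 in DP cells of pigs 2, 5 and 6 and to 85.9, 14.5 and 5.45 in DN. They were thus higher in DP in pigs 5 and 6 and not in pig 2, and their part in the differences was not tested.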

How the data were processed

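RNA of 15 libraries (Qiagen Micro kit, NuGen Ovation SoLo, paired ends) was aligned by the authors with STAR to the pig reference of Ensembl and quantified with Partek E/M. Their versions, and how values were normalized, were not given in the sources used here. The deposited values are a signal per gene with nearly the same total (629194 or 629195) in each library, and the lowest value (0.0001) was taken as 0. Structural (1125) and mitochondrial (37) rows were removed, and libraries were brought to a common size by median-of-ratios factors, from 11303 genes above the lowest value in all 15 libraries. The test took the 9960 genes with a level above 5 in 3 or more libraries, on log2(level + 1), with limma 3.58.1 (trended prior, two-sided) in R 4.3.3, adjusted by Benjamini and Hochberg with a threshold of 0.05. The 12 chondrocyte libraries entered comparisons among chondrocytes and all 15 those with MSC. The fit was also run with the pig as a block, since same-numbered chondrocyte libraries come from 1 animal. As a check, libraries of 1 pig correlated at 0.127 to 0.409 after group means were removed (median -0.214 between pigs), and 12 of 12 were nearest to their own pig. No 2 libraries were identical. The script was tested on simulated data.

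The alternatives were the deposited scale, total scaling, other pseudocounts and filters, no trend, and each library left out. The members and lists were chosen with earlier results of these data known. Named genes were the 5 members, 19 cell cycle genes kept whatever they did (RRM2 and CDKN1C were not analysed here), up to 4 called genes per list and direction, and the 5 genes most like each member. No coordinates are given because the gene annotation at hand is of another build. Genes singled out by the DP and DN order, and those called only with the block, were named after their values were seen.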

Additional observations from a re-analysis of the deposited data

How the results depend on the processing

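Of 957 member values under the alternatives, 890 kept direction and side of the threshold, 33 lost and 10 gained a call and 24 changed sign, of which 2 were outside the interaction. The interaction of UBE2C was 0.46 as deposited (with and without a block), 0.043 with total scaling, 0.27 at a pseudocount of 5 and 0.16 without the 4 pig 2 libraries, that of MKI67 0.11 at a pseudocount of 5 and 0.0248 without pig 2, and at a pseudocount of 0.1 that of TOP2A was -0.0655 and that of TPX2 -0.094. Leaving out 1 library, the interaction ranged from -0.75 to 0.68 for UBE2C, -0.38 to 1.15 for TOP2A, -0.0744 to 0.24 for TPX2 and -0.62 to 0.25 for MKI67, and TPX2 in chondrocytes vs MSC from -0.39 to 0.14. With the replicate block MKI67 in chondrocytes vs MSC was -0.39. The cause was not tested.

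Numbers of genes called moved as follows, against 21 for BMPR1B, 1 each for ITGA4, the interaction and B1B vs DN, 0 for DP vs A4 and DP vs B1B, 4 for DP vs DN, 4402 for chondrocytes vs MSC and 3576 for DP vs MSC. As deposited they were 0 for BMPR1B, 10 for ITGA4, 4 for the interaction, 3 for DP vs A4, 7 for DP vs B1B, 12 for DP vs DN, 0 for B1B vs DN, 477 for chondrocytes vs MSC and 321 for DP vs MSC. On that scale the median of all genes lay at 0.32 for ITGA4, 0.35 for DP vs DN, 0.26 for DP vs B1B, 0.59 for chondrocytes vs MSC and 0.74 for DP vs MSC, only UBE2C, TOP2A and ZNF367 passed the filter, and their calls in chondrocytes vs MSC were lost (0.96, 0.84 and 0.93) while those in DP vs MSC held. As deposited with the block, 0 were called for BMPR1B, the interaction and B1B vs DN, 3507 for ITGA4, 2002 for DP vs DN and 5422 for DP vs MSC, and UBE2C, TOP2A and ZNF367 were then called for ITGA4 (limma adjusted p = 0.0280, 0.0499 and 0.0245) and for DP vs DN (0.0219, 0.0259 and 0.0214), differences that include the shift of all genes, while in chondrocytes vs MSC UBE2C (1.21, 0.0876) and TOP2A (1.17, 0.103) were not. Total scaling gave 1 for BMPR1B, with medians of -0.44 in chondrocytes vs MSC and -0.40 in DP vs MSC.

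A pseudocount of 0.1 gave 2 for ITGA4, 0 for the interaction, 1 for DP vs B1B and 2 for B1B vs DN, and one of 5 gave 2 for BMPR1B. No filter gave 6 for BMPR1B and 2 each for ITGA4, the interaction, DP vs A4, DP vs B1B and B1B vs DN, and a filter of 20 gave 2555 for chondrocytes vs MSC and 2131 for DP vs MSC, from fewer genes tested. The replicate block gave 264 for BMPR1B and 1 for DP vs DN, and no trend gave 1 for BMPR1B. Without the 4 pig 2 libraries, a choice made after seeing the data like the deposited scale with a block, counts were 5 for BMPR1B, 6 for ITGA4, 3 for the interaction, 2 for DP vs A4, 4 for DP vs B1B, 10 for DP vs DN and 4 for B1B vs DN. Leaving out 1 library gave 1 to 40 for BMPR1B, 1 to 4 for ITGA4, 1 to 2 for the interaction, 0 to 3 for DP vs A4, 0 to 1 for DP vs B1B, 3 to 7 for DP vs DN, 1 to 3 for B1B vs DN, 3574 to 4498 for chondrocytes vs MSC and 3006 to 3639 for DP vs MSC. The TPX2 call for BMPR1B was lost with total scaling (0.999, limma adjusted p = 0.113), a pseudocount of 5 (0.60, 0.0507), no filter (0.0513), no trend (0.0555) and without pig 2 (1.13, 0.127), and its DP vs DN call without pig 2 (2.11, 0.317). Its DP vs MSC call was lost with total scaling (0.53, 0.206) and without pig 2 (0.94, 0.0784). Among chondrocytes, the block changed no call of a member beyond those given in the report.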

Other observations

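The place of the single positive populations turned with the pig. In pig 2, A4 was above B1B for all 5 genes, from 12.7 against 8.33 for ZNF367 to 4.29 against 4.28 for TPX2. In pig 6, B1B was above A4 for all 5, with 29.4 against 15.8 for UBE2C, 18.7 against 6.90 for TOP2A and 10.6 against 4.29 for MKI67. In pig 5, A4 was the higher for UBE2C, TPX2 and ZNF367 and B1B for TOP2A and MKI67. With 1 library of each population per pig, this turn has no replicate within a pig and was not tested.

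In the pig 5 MSC library MKI67 had its highest MSC level, 5.82, while TOP2A was at its lowest MSC level, 0.490, and UBE2C at 0.567. In the pig 4 MSC library UBE2C (4.66) and TPX2 (7.90) were at their highest MSC levels with MKI67 at 1.45. The genes that moved together among chondrocytes thus had different leading libraries in MSC, over 3 libraries only.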
